A study of Homo sapiens and Mus musculus with 24 samples.

Results

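HepG2 cells, a human line derived from a hepatocellular carcinoma, had their RNA sequenced after UV irradiation or no irradiation, and the comparison is described here across protein-coding functions and RNA classes. The members were all genes whose nonirradiated samples averaged 0.5 CPM or more, CPM being counts relative to the library's total, a rule that left 20117 of the 58381 annotated genes for the test. There were 3 UV-irradiated and 3 nonirradiated samples, 6 of the 24 in the series, and both groups were of 1 tumor line, given no other agent by the labels, with RNA purified by an acid phenol-chloroform reagent. The labels do not say whether the samples came from separate cultures, although the paper's captions for its sequencing data speak of biological triplicates. The p-values measure the spread between these samples, which may be technical.

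UV light creates covalent bonds between RNA and the proteins that touch it. Upon acid phenol-chloroform extraction a crosslinked RNA moves with its protein to the interphase, whereas free RNA stays in the aqueous phase from which the libraries were made. A decrease in reads upon irradiation is therefore read in this method as stronger association with protein. The reads measure recovery in the aqueous phase and not binding itself, and a change of RNA in the cell gives the same reading. From qPCR and northern blots the paper proposes that crosslinks also interfered with reverse transcription, so that qPCR showed a greater reduction.

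The total counts ranged from 36573473 to 53511592 per sample. The 10 genes with the most counts took 19.3% to 23.1% of the counts of a nonirradiated sample and 39.3% to 40.5% of an irradiated one, so libraries were scaled with edgeR's TMM factors, which hold the bulk of the genes level. All fold changes below are log2 values of irradiated over nonirradiated samples on that scale. With library sizes alone every value would be lower, the median of all genes moving by −1.30, and 1734 genes would be called higher and 15830 lower, so a rise here is a rise relative to the bulk.

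Nonirradiated replicate 1 stood apart from the other 2 nonirradiated samples. Among the 9308 genes with a mean of at least 10 CPM over the 6 samples, 156 differed by more than 2-fold in it from the mean of the other nonirradiated samples, 153 of them upward, against at most 29 in any other sample measured in the same way. Where leaving this library out moves a count or median below by more than 1.5 times, the value without it is given as well.

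Of the genes tested, 7660 were called higher (38.1%) and 8189 lower (40.7%) at an adjusted p under 0.05, and 4167 (20.7%) and 5321 (26.5%) were called so with a change of at least 2-fold. The median of all genes tested was −0.08. Among the 13735 protein-coding genes tested, which make up nearly all the lists that follow, 45.9% were called higher and 34.2% lower, and the median was 0.17 (0.11 without nonirradiated replicate 1).

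Of 10 hepatocyte markers 9 passed the filter, which fits the label of the cells. Albumin (ALB) was among the 10 genes with the most counts, and the other plasma protein markers of hepatocytes, APOB, APOA1, SERPINA1, TF, TTR and FGB, as well as the fetal protein AFP and the hepatocyte transcription factor HNF4A, were all tested. The marker under the filter was TM4SF4. Markers of other cells were low for the most part. The summed level of 7 erythroid markers was 0.355 to 0.486 CPM without and 0.216 to 0.307 CPM with irradiation (2 at 0 in every sample), that of 6 neural ones 1.80 to 2.68 and 0.192 to 0.240 CPM (OLIG2 at 0), that of 6 endothelial ones 12.5 to 16.8 and 2.37 to 2.84 CPM, and that of 6 fibroblast ones 32.8 to 34.7 and 15.9 to 18.2 CPM, with 3 of them at 0 and PDGFRB alone past the filter. The 6 leukocyte markers summed to 1810 to 2630 and 1220 to 1290 CPM, nearly all of it LYZ, or lysozyme. The macrophage genes CD68, CD14 and LYZ were counted in every sample, and LYZ had 1153, 1634 and 1569 normalized CPM without irradiation and 1910, 1879 and 1914 with it. All 3 passed the test as higher, with changes from 0.39 for LYZ (0.17 without nonirradiated replicate 1) to 1.75 for CD14, while the T cell gene CD3E had no count and the pan-leukocyte gene PTPRC at most 10. The part of these markers in the results was not tested.

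**Figure D1:**
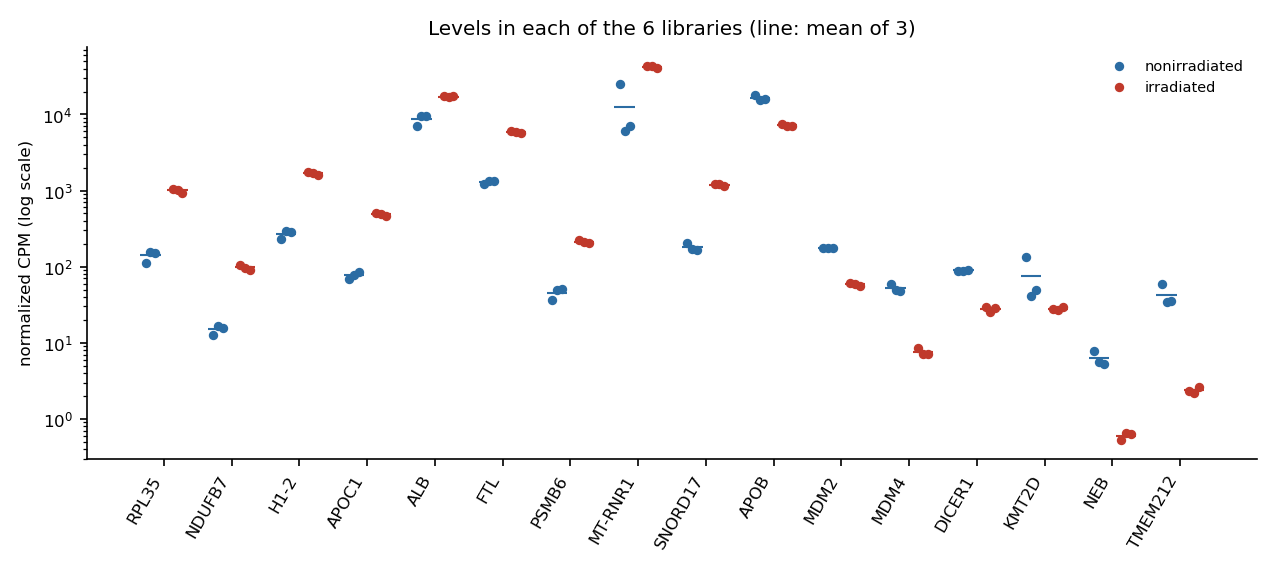
Normalized CPM on a log axis of 16 genes in each of the 3 nonirradiated (blue) and 3 irradiated (red) HepG2 samples, with a line at each mean of 3. The groups do not overlap for any gene shown, as for 16591 of the 20117 genes tested, and several were named by a rule that required it. The first gene drawn is RPL35 (111 to 157 against 942 to 1064) and the last TMEM212 (34.0 to 58.6 against 2.19 to 2.60). Nonirradiated replicate 1 stands above the other 2 most clearly for MT-RNR1 and KMT2D, and also for TMEM212, NEB, MDM4, SNORD17 and APOB.

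Genes of ribosomal proteins were all higher. All 86 tested genes of the cytosolic ribosome, of 88 listed, were called higher, 84 of them by at least 2-fold, with a median of 2.46 (2.27 without nonirradiated replicate 1). RPL35 (ENSG00000136942, chromosome 9, 124857880 to 124861981 of hg38), a protein of the large subunit, had 111, 157 and 153 normalized CPM in the nonirradiated and 1064, 1021 and 942 in the irradiated samples. Each irradiated sample was above each nonirradiated one, as the rule for naming it required. The change was 2.85 (standard error 0.14, adjusted p = 4.1e-07). The large subunit's 51 tested genes had a median of 2.46 and the small subunit's 33 one of 2.50. RPLP0, the acidic stalk protein and the member with the most reads, had 688, 856 and 845 normalized CPM without irradiation and 3798, 3717 and 3570 with it. The exception in size was RPL7L1, a paralog of RPL7 found in preribosomes and named here after its values were seen, with 64.3, 68.4 and 65.8 normalized CPM against 75.7, 71.6 and 74.5. Its change of 0.16 had an adjusted p of 0.043, and without nonirradiated replicate 1 it was 0.07 with an adjusted p of 0.12.

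The factors that work on the ribosome went both ways. Of 44 tested initiation factors and regulators 31 were called higher and 7 lower, with a median of 0.78. EIF4EBP1, the small repressor of cap binding, rose by 2.30 (26.3, 29.4 and 29.5 against 144, 142 and 135 normalized CPM). EIF5A2 was lower, at −1.06. Among 11 elongation and release factors 9 were called higher and 2 lower. EEF1B2, the exchange factor for eEF1A, changed by 2.35, EEF1A1, with the most reads, by 1.34, and EEF2K, the kinase that inhibits eEF2, by −1.51. Aminoacyl-tRNA synthetases were higher in 16 and lower in 1 of 20 cases with a median of 0.73, and lower in 4 without nonirradiated replicate 1.

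Nuclear genes for mitochondrial proteins were higher in nearly all cases. Of 83 mitochondrial ribosomal proteins 80 were called higher and 1 lower (2 lower without nonirradiated replicate 1), with a median of 1.72. MRPL54 had 4.05, 5.95 and 5.26 normalized CPM without irradiation and 33.3, 35.5 and 30.3 with it, a change of 2.69, whereas MRPL42 was lower, at −0.37. Of 82 nuclear-encoded subunits of the respiratory chain and ATP synthase 79 were called higher and 1 lower (2 lower without that library), with a median of 2.04. By complex the medians were 2.09 for complex I (38 genes), 0.91 for complex II (4), 2.09 for complex III (9), 2.19 for complex IV (12) and 1.92 for ATP synthase (18). NDUFB7, an accessory subunit of complex I, went from 12.8, 16.8 and 15.8 to 106, 96.8 and 91.3 normalized CPM, a change of 2.69 (standard error 0.11, adjusted p = 2.8e-07). ATP5F1A, the alpha subunit of ATP synthase and the subunit with the most reads, rose by 1.20. The subunit that fell was COX6B2, the testis isoform of COX6B, which had 2.31, 1.46 and 1.78 normalized CPM before and 0.49, 0.08 and 0.16 after irradiation.

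The mitochondrial genome, which is transcribed inside the organelle as long polycistronic RNAs, gave higher values too, and here nonirradiated replicate 1 weighed on the result. Of 13 mitochondrially encoded mRNAs 11 were called higher, with a median of 1.38, and without that library all 13 were, with a median of 1.86. MT-CO3, a core subunit of complex IV, was stable before irradiation (1078, 947 and 1000 normalized CPM) and reached 4332, 4388 and 4456 after it. MT-ND4, a core subunit of complex I named after its values were seen, had 1838 in nonirradiated replicate 1 against 701 and 749 in the other 2 and 2014, 2127 and 2130 after irradiation, so that its change was 0.93 with the library and 1.46 without it. The 12S ribosomal RNA MT-RNR1 had 24830, 6129 and 7043 normalized CPM without irradiation and 43500, 43720 and 40730 with it. Its change was 1.75 (adjusted p = 0.0086), and 2.62 without replicate 1. The 16S RNA MT-RNR2 had 51340, 39570 and 41270 normalized CPM against 267400, 265600 and 249100, a change of 2.56, or 2.62 without that library. Of 22 mitochondrial tRNAs 20 were tested and 19 called higher, from MT-TS2 at 0.59 to MT-TV at 2.68. MT-TR was the exception, with 4.77, 4.15 and 3.66 normalized CPM before and 4.92, 3.78 and 5.56 after irradiation.

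Histone mRNAs of the replication-dependent kind were higher in all but 1 case. Replication-dependent histone genes make short, intronless messages that end in a conserved stem-loop instead of a poly(A) tail, and 47 of the 48 tested were called higher, each by at least 2-fold, with a median of 2.55 (2.35 without nonirradiated replicate 1). H1-2, with the most reads, went from 229, 293 and 290 to 1751, 1725 and 1611 normalized CPM, a change of 2.65. H3C10 went from 104, 144 and 140 to 924, 848 and 804. The medians were close for all histone types, 2.65 for H1 (4 genes), 2.58 for H2A (13), 2.40 for H2B (16), 2.65 for H3 (6) and 2.63 for H4 (9). The gene without a call, likewise named after its values were seen, was H2BC6 (0.34, 0.56 and 0.44 against 0.34, 0.49 and 0.33 normalized CPM), whose annotated exons of 2585 bases share 28.2% with another gene. The stem-loop of H3C10 and of H1-5, beside those of H2BC6 and of an H4 gene, shows what nearly all of these messages share. The capitals mark the 6-base stem, the 4-base loop and the second arm of the stem, read from hg38 in the direction of transcription at chr6:27810511-27810536 (plus strand), chr6:27866792-27866817 (minus), chr6:26184205-26184230 (plus) and chr6:26188710-26188735 (minus).
H3C10: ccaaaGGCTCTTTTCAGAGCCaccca
H1-5: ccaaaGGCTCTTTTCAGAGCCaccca
H2BC6: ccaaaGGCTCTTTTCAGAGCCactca
H4C4: ccaacGGCCCTTTTCAGGGCCaccta
A perfect stem of 6 bases that starts with GG around a loop of 4 bases that starts with TT was present in 43 of the 48 tested replication-dependent histone genes, looked for on the sense strand of their exons and 150 bases beyond. It was in 1 of 11 replacement histones and in 144 of 13735 protein-coding genes (1.05%). The 101 other protein-coding genes that held such letters had a median change of −0.31. The replacement histones, whose messages are polyadenylated, were higher in 9 of 11 cases with a median of 1.28, from H2AJ at 2.37 to MACROH2A1 at −0.39.

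**Figure D2:**
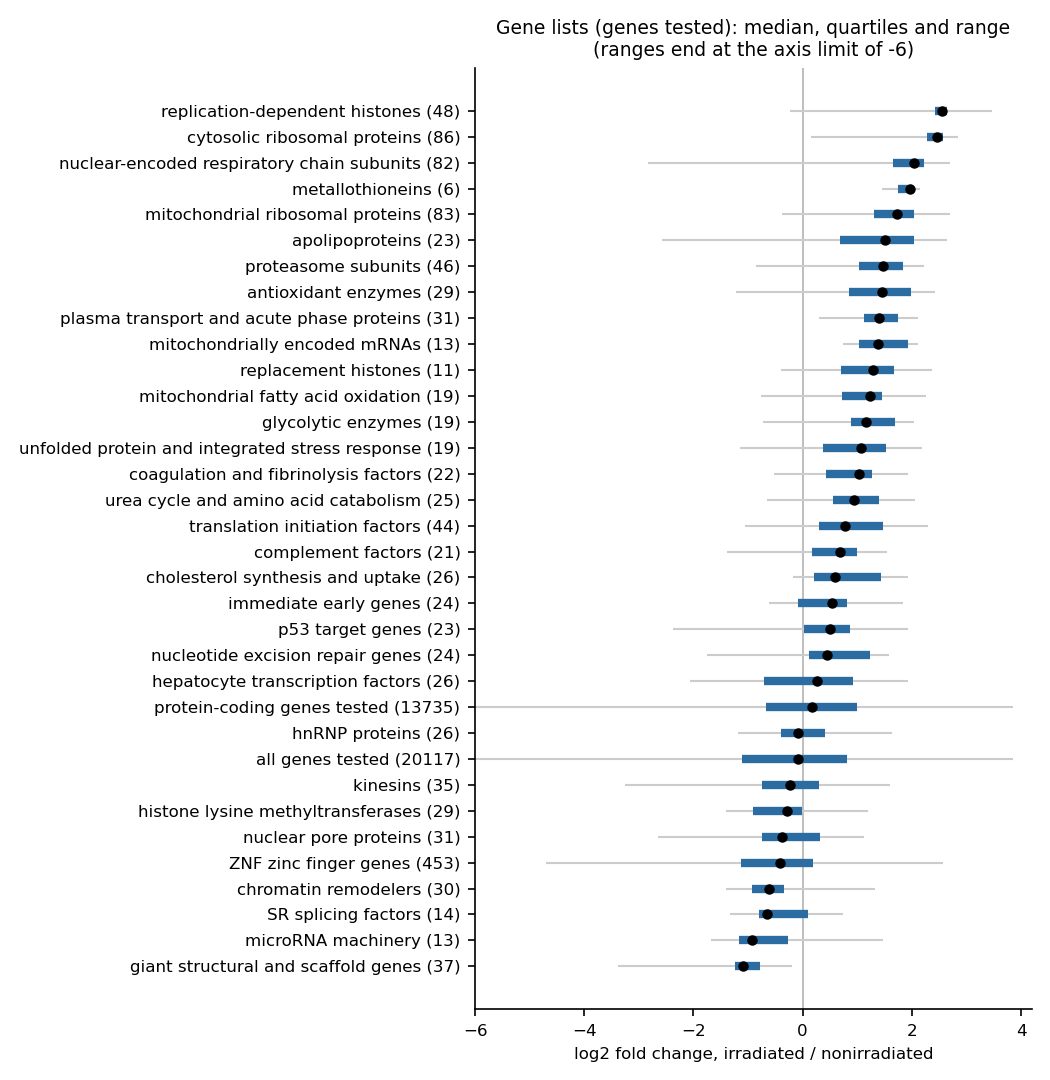
Log2 fold changes of 32 gene lists and of all and all protein-coding genes tested, with the number tested in parentheses: points are medians, blue bars the quartiles and gray lines the range, drawn down to −6. Replication-dependent histones (2.55) and cytosolic ribosomal proteins (2.46) lie highest, and the giant structural and scaffold genes (−1.09) and the microRNA machinery (−0.93) lowest.

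The secreted proteins that make up the hepatocyte's output were largely higher. All 31 tested plasma transport and acute phase proteins were called higher, with a median of 1.40. ALB had 7026, 9604 and 9487 normalized CPM without irradiation and 17330, 16940 and 17380 with it, a change of 0.98 (standard error 0.15). TTR, the carrier of thyroxine and retinol-binding protein, changed by 2.03, SERPINA1, the elastase inhibitor, by 1.94, TF, the iron carrier, by 1.30 and SAA4 by 2.12. Of 22 coagulation and fibrinolysis factors 17 were called higher and 2 lower (16 and 3 without nonirradiated replicate 1). F10 changed by 1.93, F5, the large cofactor of factor X, by −0.53 and TFPI, the inhibitor of the tissue factor pathway, by −0.41. Complement factors were higher in 15 and lower in 3 of 21 cases, with C8G at 1.54, C3 at 0.57 and the lectin MBL2 at −1.38.

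Apolipoproteins differed widely among themselves. Of 23 tested 19 were called higher and 3 lower, and the median was 1.5. APOC1 had 69.8, 78.2 and 85.2 normalized CPM without irradiation and 507, 486 and 465 with it, a change of 2.64, and APOA1, the main protein of high-density lipoprotein, changed by 2.52. APOB (ENSG00000084674, chromosome 2, 21001429 to 21044073 of hg38), the very large protein of low-density lipoprotein, fell instead, from 17780, 15530 and 16070 to 7491, 6992 and 7034 normalized CPM, a change of −1.20 (standard error 0.12, adjusted p = 1.5e-05). Its annotated exons cover 14828 bases against a median of 2085 over the list, and the rank correlation of exon length with the change across the 23 genes was −0.72. The genes that fell beside it, APOL4 (−2.58) and APOL6 (−1.78), belong to a subfamily whose 5 tested members had a median of 0.29 against 1.76 for the other 18.

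Genes of liver regulation and metabolism were mixed. Among 26 hepatocyte transcription factors 13 were called higher (50.0%) and 9 lower (34.6%), with a median of 0.27 (0.45 without nonirradiated replicate 1). These shares were near those of all protein-coding genes, 45.9% and 34.2%. CEBPD changed by 1.92 and ONECUT2 by −2.07. HNF4A lay in between at 0.06, with 174, 174 and 173 normalized CPM before and 183, 179 and 182 after irradiation, and its change was not past the threshold (−0.01 without nonirradiated replicate 1). Cholesterol synthesis and uptake genes were higher in 20 and lower in 1 of 26 cases (lower in 3 without that library), with PMVK at 1.92, and mitochondrial fatty acid oxidation genes higher in 17 and lower in 1 of 19. In fatty acid synthesis and lipid storage 10 of 22 were higher (45.5%) and 5 lower (22.7%), or 10 and 9 without nonirradiated replicate 1. AGPAT2 was at 2.10, the desaturase SCD at −0.44 and GPAM, which starts glycerolipid synthesis, at −1.24. Cytochromes P450 and conjugating enzymes were higher in 29 and lower in 11 of 47 cases, from GSTO1 at 2.15 to CYP2B6 at −3.30. Of 25 genes of the urea cycle and amino acid catabolism 21 were higher and 3 lower (GNMT 2.05, TAT −0.66). PPARGC1A, the coactivator that drives gluconeogenic genes, fell by 1.42 on the log2 scale. Citric acid cycle enzymes were called higher in 20 of 22 cases and lower in none (19 and 1 without nonirradiated replicate 1), led by SDHB at 1.78, and glycolytic enzymes in 16 of 19, with HK2 lower at −0.73.

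Most genes of protein turnover and stress were higher. Of 46 proteasome subunits 41 were called higher and 2 lower, with a median of 1.47. The beta subunits of the catalytic core had a median of 1.95 over 10 genes, and PSMB6 went from 36.8, 49.4 and 50.4 to 221, 212 and 204 normalized CPM. PSME4, the large activator PA200, fell by 0.85 on the log2 scale. Ubiquitin, SUMO and E2 genes were higher in 31 and lower in 6 of 41 cases, with ISG15 at 2.63. Genes of the unfolded protein and integrated stress response were higher in 15 and lower in 2 of 19 cases, SDF2L1 at 2.19, ATF4 at 1.68 and SEL1L, an adaptor of ER-associated degradation, at −1.14. In the translocation and glycosylation machinery of the ER 24 were higher and 5 lower of 36 (25 and 8 without nonirradiated replicate 1), with SSR4 at 2.30 and SPCS3 at −0.93. Cytosolic chaperones were higher in 20 and lower in 1 of 25 cases (22 and 2 without that library), with HSPB1 at 2.08 and HSP90AB1 at 0.67.

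Most antioxidant enzymes and all metallothioneins were higher. Of 29 antioxidant genes 23 were called higher and 4 lower, with a median of 1.46. FTL, the ferritin light chain, went from 1212, 1345 and 1328 to 6002, 5902 and 5740 normalized CPM, and GPX4, the lipid peroxidase, changed by 2.42. GCLM, a subunit of the enzyme that starts glutathione synthesis, fell by 1.22 on the log2 scale. All 6 tested metallothioneins were called higher, with a median of 1.96 and MT2A at 1.97, but these genes are near-identical copies among which reads can be misassigned.

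Genes of the response to UV damage went both ways. Of 24 nucleotide excision repair genes 15 were higher and 5 lower, with a median of 0.45. UVSSA, of transcription-coupled repair, changed by −1.76 (−1.30 without nonirradiated replicate 1). DDB1, a damage sensor, was at 0.16 and was not called. Of 23 p53 targets 14 were higher and 5 lower. TP53I3 rose by 1.93, whereas MDM2, the ligase that degrades p53, went from 175, 176 and 177 to 61.8, 58.9 and 56.1 normalized CPM, a change of −1.57, and TP53INP1 changed by −2.38. MDM4, a relative of MDM2 that also restrains p53, was among the 10 protein-coding genes with the largest falls at a mean of at least 10 CPM, at 59.8, 49.8 and 48.2 normalized CPM before and 8.41, 7.02 and 7.17 after irradiation. Of 24 immediate early genes 14 were called higher and 1 lower (16 and 3 without nonirradiated replicate 1), with a median of 0.54. IER3 changed by 1.84, and CCN2 had 328, 124 and 136 against 151, 154 and 149 normalized CPM, a change of −0.37 that was not called and that became 0.15 without nonirradiated replicate 1, then past the threshold.

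Several lists were called lower more often than higher. Of 37 giant structural and scaffold genes none was called higher and 36 were called lower, 22 by at least 2-fold, with a median of −1.09. SPTBN1, a spectrin and the member with the most reads, had 1039, 1006 and 1027 normalized CPM without irradiation and 658, 610 and 631 with it. NEB, the muscle protein nebulin, went from 7.90, 5.60 and 5.29 to 0.53, 0.64 and 0.62. The gene without a call, named for that reason after its values were seen, was LRP1, whose 547 normalized CPM in nonirradiated replicate 1 stood against 212 and 239 in the other 2 and 212, 216 and 222 after irradiation. Without that library its change was −0.13 in place of −0.62, with an adjusted p of 0.0014 in place of 0.095.

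Chromatin remodelers were called lower in 23 and higher in 4 of 30 cases, with a median of −0.61. The helicase CHD4, with the most reads, changed by −0.27, ARID2 by −1.41 and SMARCB1, a small core subunit of SWI/SNF, by 1.32. Of 29 histone lysine methyltransferases 12 (41.4%) were called lower and 5 (17.2%) higher, and 18 and 8 were without nonirradiated replicate 1. Among all genes tested 40.7% were lower and 38.1% higher, and among protein-coding genes 34.2% and 45.9%. KMT2D had 134, 41.7 and 49.4 normalized CPM before and 27.7, 27.2 and 29.4 after irradiation, a change of −1.41 that was −0.76 without nonirradiated replicate 1. SETD5, with the most reads of that list, changed by −1.40.

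Genes named ZNF, most of which encode DNA-binding zinc finger repressors, made up the list with the most members. Of 453 tested 224 were called lower and 91 higher, with a median of −0.42. The 230 of them on chromosome 19, where such genes stand in clusters, had a median of −0.58, against −0.21 for the 223 elsewhere. The 872 other protein-coding genes of chromosome 19 had a median of 0.92, with 585 called higher and 142 lower. ZNF638, with the most reads, changed by −0.79. ZNF593, a short gene of ribosome assembly, rose by 2.57, although 92.2% of its exon bases are shared with another gene.

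Genes of RNA-handling proteins differed by list. SR splicing factors were lower in 8 and higher in 3 of 14 cases with a median of −0.65, SRSF1 at −0.74 and SRSF7 at 0.74. Nuclear pore genes were lower in 20 and higher in 9 of 31, with TPR, of the nuclear basket, at −0.67. The small proteins of spliceosomal snRNPs and LSM rings were on the other side, 38 higher and 11 lower of 55 with a median of 0.97. SNRPD2, of the Sm ring, changed by 2.38, and LSM11, of the U7 snRNP, by −0.79. hnRNP proteins had 9 called higher (34.6%) and 8 lower (30.8%) of 26, with a median of −0.08 (−0.04 without nonirradiated replicate 1). Of 16 paraspeckle proteins 3 were higher (18.8%) and 7 lower (43.8%), with a median of −0.4 and NONO at 0.44. Among all genes tested 38.1% were higher and 40.7% lower, and among protein-coding genes 45.9% and 34.2%. Of 13 genes of the microRNA machinery 9 were lower and 2 higher with a median of −0.93 (−0.63 without that library). DICER1, the nuclease that cuts microRNA precursors, had 88.0, 88.3 and 91.0 normalized CPM before and 29.5, 25.6 and 28.3 after irradiation, a change of −1.68, whereas TARBP2, its small partner, changed by 1.47.

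Members of further complexes and families went both ways. In RNA polymerase II the small common subunit POLR2F changed by 2.26, and the largest subunit, POLR2A, by −0.69 without a call, or −0.11 without nonirradiated replicate 1 (112, 37.5 and 45 against 42.4, 38.4 and 39.4 normalized CPM). In Mediator, where 19 of 33 genes were higher and 9 lower, MED11 changed by 1.89 and MED13 by −1.33. Among 28 genes of the exosome, decapping and deadenylation 14 were higher (50.0%) and 11 lower (39.3%), against 45.9% and 34.2% of protein-coding genes. The exosome subunit EXOSC4 was at 2.26 and the deadenylase CNOT6 at −2.12. Solute carriers were 95 higher (37.8%) and 105 lower (41.8%) of 251, against 45.9% and 34.2% of protein-coding genes. Among all genes tested the shares were 38.1% and 40.7%. The median of solute carriers was −0.08 (−0.14 without nonirradiated replicate 1), and that of protein-coding genes 0.17. The solute carriers included SLC25A6, the ADP/ATP exchanger, at 2.06 and SLC38A2, a glutamine transporter, at −1.19. Kinesins were 10 higher and 18 lower of 35, with KIF5B at −1.21, and ABC transporters 11 higher and 18 lower of 37. Mitotic genes were 15 higher and 7 lower of 28, with a median of 0.31 (0.15 without nonirradiated replicate 1). DNA replication genes were 26 higher and 4 lower of 40 with a median of 0.52, or 27 and 9 with a median of 0.33 without that library. Mitotic genes had the strongest rank correlation of exon length with the change of any list named here, −0.88, and every protein-coding list named here with at least 10 tested genes had a negative one, the weakest being −0.06 in SR factors and in cytochromes P450 and conjugating enzymes.

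This order by length held over all 13735 protein-coding genes tested. In 5 equal bins of annotated exon length, from the shortest (up to 2762 bases) to the longest (8075 bases and above), the median changes were 1.21, 0.58, 0.18, −0.19 and −0.61. In the shortest bin 75.2% of genes were called higher and in the longest 15.7%, while 12.7% and 64.6% were called lower. The rank correlation across these genes was −0.48, and −0.47 over the 9268 of them that share at most 5% of their exon bases with another gene. Genes are not independent replicates, and these values are given as a description. Exon length is the union of all annotated exons, so it is only a stand-in for the length of the RNA in the cells.

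Base composition ran beside length. From the lowest to the highest bin of GC content the medians were −0.52, −0.19, 0.12, 0.53 and 0.92 (rank correlation 0.41), and from the lowest to the highest bin of U content 0.92, 0.52, 0.11, −0.18 and −0.49 (−0.39). Split into 3 equal groups by each, short genes (up to 3682 bases) had medians of 0.41 at low, 0.83 at middle and 1.32 at high GC content. Long genes (from 6391 bases) had −0.74, −0.43 and 0.15. Both features thus went with the change at a fixed level of the other. The number of exon blocks (−0.26) and the genomic span (−0.41) gave rank correlations of the same sign as length. Without nonirradiated replicate 1 the medians by exon length were 1.11, 0.50, 0.13, −0.24 and −0.61. By GC content they were −0.6, −0.26, 0.07, 0.47 and 0.89, and by U content 0.88, 0.45, 0.06, −0.26 and −0.57.

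**Figure D3:**
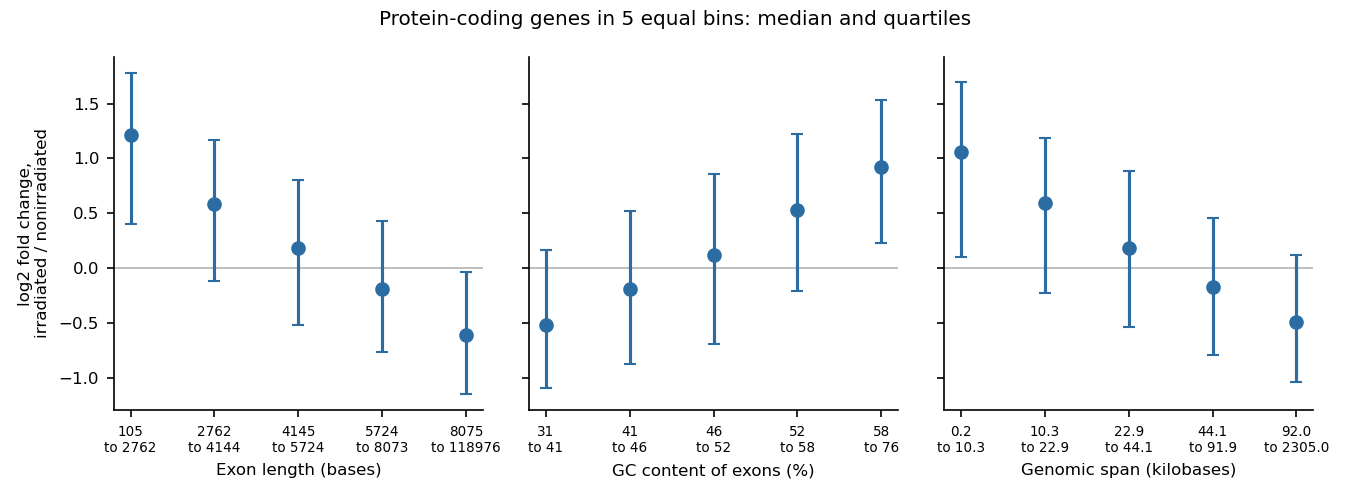
Log2 fold changes of 13735 protein-coding genes in 5 equal bins of exon length (bases), exon GC content (percent) and genomic span (kilobases), as medians with quartiles. The medians fall from 1.21 to −0.61 with exon length and from 1.06 to −0.49 with span, and rise from −0.52 to 0.92 with GC content.

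The protein-coding genes with the largest rises at 10 CPM or more were mostly ribosomal proteins, histones and a few small proteins. RPL35 was joined by RPL36 (2.78), RPS9 (2.77), RPS19 (2.74) and by H3C13 (2.74) and H3C10 (2.73). CCDC85B (2.73), a small coiled-coil protein, and ALKBH7 (2.72), a mitochondrial dioxygenase, stood beside them. The first place was taken by WDR38 (3.34), with 3.34, 5.27 and 5.12 normalized CPM before and 50.3, 47.2 and 42.1 after irradiation. WDR38 lies on chromosome 9 from 124853417 to 124857890, so its end overlaps RPL35 by 0.793% of its own exon bases, and since reads were counted for every gene they overlapped and without a strand option, reads across that overlap cannot be told apart. HLA-G, named after its values were seen, had a larger fitted change of 3.85, but its counts of 257, 34 and 524 in the irradiated samples, against 28, 43 and 56, spread too widely for its size to be read.

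The 10 largest falls at that level were of other kinds of genes. TMEM212 (ENSG00000186329, chromosome 3, 171843349 to 171938715), a membrane protein, went from 58.6, 34.0 and 35.1 to 2.35, 2.19 and 2.60 normalized CPM, a change of −4.16 (standard error 0.24, adjusted p = 7.6e-07). FSIP2 (−4.13), a sheath protein of sperm, UGT8 (−4.11), which makes galactolipids of myelin, ODF2L (−4.05) and TSHZ2 (−4.04) followed. The others were SHISA9 (−3.82), a glutamate receptor auxiliary protein, ZNF471 (−3.62), PARP15 (−3.52), ZNF793 (−2.87) and MDM4 (−2.80). The rule that picked them required groups without overlap, which held for 16591 of the 20117 genes tested in either direction. Without nonirradiated replicate 1 the changes ran from −4.14 for FSIP2 to −2.72 for ZNF793.

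By level, protein-coding genes with few reads had lower values than those with many. Protein-coding genes with a mean under 1 CPM over the 6 samples had a median of −1.03 (1087 genes), those from 1 to 10 CPM −0.06 (3913), those from 10 to 100 CPM 0.31 (7671) and those above 0.78 (1064). This mean includes the irradiated samples, so the change itself helps to set the range a gene falls in. The filter used the nonirradiated samples only, so a gene with few reads could pass on its level in that group alone. At its edge CYP26C1 (0.5004 CPM without and 0.0144 with irradiation) was just inside, and ENSG00000256278 (0.4999 CPM and no count) just outside. In all, 213 genes (1.06%) had no count in any irradiated sample, 88 of them processed pseudogenes, 64 lncRNAs and 18 protein-coding. The bitter taste receptor TAS2R50 had 76, 77 and 81 counts without irradiation, RGS13, a regulator of G protein signaling, 49, 41 and 45, and OMD, osteomodulin, 45, 37 and 32. At a floor of 3 counts over the irradiated group TAS2R50 was at least 33.5-fold lower, RGS13 at least 19.4-fold and OMD at least 16.3-fold, and these 3 were named after their values were seen. Among markers of other cell types, the neuronal gene SNAP25 had 67, 56 and 41 counts against 0, 2 and 0, and KDR of endothelium had 25, 34 and 17 against 1, 0 and 1. The number of genes with at least 1 count was 31962 to 32665 in nonirradiated and 24671 to 25724 in irradiated samples.

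RNA classes were taken from GENCODE release 44, which matched 98.93% of the gene identifiers. Protein-coding genes held 77.0% ± 2.67 of all counts without irradiation and 54.2% ± 0.681 with it (SD, n = 3 each). The mitochondrial rRNAs went the other way, from 8.89% ± 2.47 to 19.3% ± 0.324, and would start from 7.46% without nonirradiated replicate 1. The class of miscellaneous RNAs, most of whose counts are 7SL and a copy of 7SK, went from 3.52% ± 0.221 to 9.45% ± 0.319, snRNAs from 0.902% ± 0.162 to 2.16% ± 0.0201 and ribozymes from 0.718% ± 0.0104 to 1.93% ± 0.0139. Of 17 classes compared by share 16 had an exact two-sided permutation p of 0.1, the smallest that 3 against 3 can give, and an adjusted p of 0.106; for miRNA precursors the exact p was 0.8. Shares cannot pass a threshold in this design. Nearly all of the snRNA share is RN7SK, whose reads are also counted under miscellaneous RNAs as the copy of 7SK. Without the 10 genes with the most counts the difference in share was −4.935 percentage points for protein-coding genes in place of −22.8, −0.00264 for miscellaneous RNAs and −0.004325 for snRNAs. Some abundant RNAs are annotated under 2 identifiers with the same counts, so their classes hold the same reads more than once.

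Processed pseudogenes were lower in the largest share of any class with at least 9 genes tested. Of 698 processed pseudogenes 628 (90.0%) were called lower and 16 higher, with a median of −3.73, or −3.56 when the 88 genes with no irradiated count are put at their floor. Among the transcribed processed pseudogenes 87 of 129 were lower and 10 higher, with a median of −1.76. Other pseudogene classes had medians nearer to the bulk, −1.01 for unprocessed (105 genes), −0.84 for transcribed unitary (60) and −0.59 for transcribed unprocessed ones (307). Of 292 TEC entries, transcripts that await experimental tests, 210 were lower and 44 higher. At a 6-sample mean of 1 to 10 CPM the 117 processed pseudogenes had a median of −3.14, and protein-coding genes −0.06. That mean includes the irradiated samples, so the classes were not matched on their level without irradiation. Reads of a processed pseudogene are hard to separate from those of its parent gene, so these values are uncertain.

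Classes of small RNAs differed. Of 102 miscellaneous RNAs 66 were lower and 26 higher, with a median of −2.0, although their share of counts was larger after irradiation. All 9 scaRNAs of the GENCODE class were higher, all 20 tested mitochondrial tRNAs but MT-TR, and 80 of 175 snoRNAs, with 28 lower and a median of 0.52 (0.30 without nonirradiated replicate 1). miRNA precursors were split, with 37 higher and 32 lower of 112 and a median of −0.02 (0.31 without nonirradiated replicate 1), and 85 of these share over 5% of their bases with another gene. In the snRNA class 10 of 20 were higher and 8 lower, and the median of 0.14 became 1.57 without nonirradiated replicate 1.

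**Figure D4:**
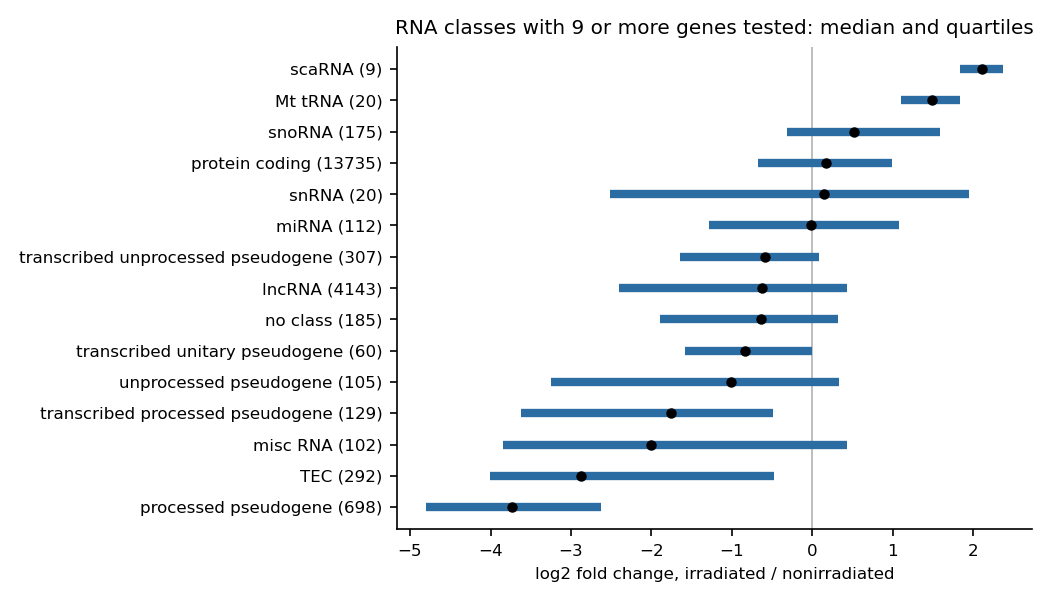
Log2 fold changes by RNA class, for classes with at least 9 genes tested (number in parentheses), as medians with quartiles. scaRNAs (2.11) and mitochondrial tRNAs (1.49) lie highest, protein-coding genes at 0.17, and processed pseudogenes lowest (−3.73).

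Among the RNAs of stable ribonucleoproteins beyond 7SK and 7SL, the catalytic RNAs were called higher. RPPH1, the RNA of RNase P, which trims tRNA precursors, had 3058, 3352 and 3357 normalized CPM without irradiation and 23290, 22750 and 21720 with it, a change of 2.79. RMRP, of RNase MRP, changed by 2.57 and TERC, the template RNA of telomerase, by 2.66. RNU2-2P, a copy of U2, went from 4.38, 3.33 and 3.42 to 24.3, 23.9 and 23.8 normalized CPM and RNU11, of the minor spliceosome, changed by 1.94. All 5 of these RNAs share most of their bases with another annotated gene, from 81.0% for TERC to 100% for RPPH1, RMRP and RNU2-2P, so their reads cannot be assigned to 1 of the genes.

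The vault RNA and the Y RNA that passed the filter went apart. VTRNA1-3, a polymerase III transcript of the vault particle, had 33, 43 and 25 counts without irradiation and 66, 66 and 73 with it, a change of 2.23 (standard error 0.23, adjusted p = 2.1e-05). RNY3, the polymerase III transcript bound by Ro60, had 41, 44 and 23 counts against 2, 4 and 5, a change of −2.07 (standard error 0.50, adjusted p = 0.0045). Both are short and share no bases with another gene. The sequence of the rising RNA is given from hg38, chr5:140726158-140726246 on the plus strand, with the 3′ run of T in capitals, where the annotated RNA ends.
VTRNA1-3: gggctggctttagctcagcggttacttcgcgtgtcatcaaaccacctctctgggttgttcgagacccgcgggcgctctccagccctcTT
At these counts the precision is low, and the direction alone was the same in every sample of each group.

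snoRNAs guide modification of rRNA, C/D box snoRNAs for methylation and H/ACA box snoRNAs for pseudouridine, and scaRNAs do so for snRNAs in Cajal bodies. Most lie in introns of host genes, and 120 of the 174 tested share over 5% of their bases with another gene. Of 97 C/D box snoRNAs 37 were higher (38.1%) and 21 lower (21.6%) with a median of 0.11. Of 66 H/ACA box snoRNAs 36 were higher (54.5%) and 6 lower (9.09%) with a median of 0.98, and of 11 scaRNAs 10 were higher with a median of 2.28. Among all genes tested 38.1% were higher and 40.7% lower. SCARNA13 had 17.3, 26.2 and 24.9 normalized CPM before and 154, 152 and 150 after irradiation. SCARNA9 was the one without a call, at −0.13.

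Among the 54 of these RNAs that share at most 5% of their bases, the median was higher in longer than in shorter ones. Those up to 120 bases had a median of −0.56 (23 RNAs, 4 higher and 6 lower), those from 121 to 150 bases 0.98 (20) and those above 150 bases 2.03 (11, with 9 higher and 1 lower). Over all 174 the medians were −0.03 (86 RNAs, 29 higher and 20 lower), 1.11 (66) and 2.15 (22). In the GENCODE snoRNA class the median also rose with the mean level over the 6 samples. The median was −0.2 under 1 CPM (86 genes), 1.42 from 1 to 10 CPM (80), 2.23 from 10 to 100 CPM (6) and 2.72 above (3). That mean includes the irradiated samples, so a rise itself moves an RNA to a higher range and this order is partly built in. The part of level in the order by length was not tested. SNORD3A, the U3 snoRNA of early rRNA processing, annotated at 699 bases, had 4.38, 4.90 and 4.09 normalized CPM before and 57.6, 44.6 and 48.4 after irradiation, the largest rise of the list at 3.49. SNORD17 (ENSG00000212232, 237 bases) had 204, 169 and 163 against 1220, 1212 and 1157, and SNORA12 (147 bases) rose by 3.04. SNORD104, of only 70 bases, rose by 1.83, and SNORD12B, of 91 bases, fell from 120, 203 and 157 to 53, 31 and 56 counts, a change of −0.56 (adjusted p = 0.023). SNORA71B, of 272 bases, went against the order by length with a change of −2.25. The snoRNAs that represent long and short, rising and falling members are printed from hg38, with the C and D boxes of SNORD17, SNORD104 and SNORD12B and the ACA box of SNORA12 in capitals. Their positions are chr20:17962710-17962946 (minus strand), chr17:64146083-64146152 (plus), chr20:49280319-49280409 (plus) and chr10:100237156-100237302 (minus).
SNORD17: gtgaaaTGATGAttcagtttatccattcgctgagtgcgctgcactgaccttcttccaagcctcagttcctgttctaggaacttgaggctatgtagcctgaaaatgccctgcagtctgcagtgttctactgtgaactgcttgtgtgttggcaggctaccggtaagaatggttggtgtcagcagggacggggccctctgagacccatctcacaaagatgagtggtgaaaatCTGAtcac
SNORD104: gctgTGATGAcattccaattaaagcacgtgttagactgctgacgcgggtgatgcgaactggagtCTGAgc
SNORD12B: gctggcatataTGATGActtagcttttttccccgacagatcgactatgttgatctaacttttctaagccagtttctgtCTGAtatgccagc
SNORA12: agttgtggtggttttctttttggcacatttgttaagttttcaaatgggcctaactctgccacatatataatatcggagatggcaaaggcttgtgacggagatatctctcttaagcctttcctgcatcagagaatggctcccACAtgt
SNORD17 and SNORD104, which rose, and SNORD12B, which fell, all hold the C and D boxes that give their family its name. No falling H/ACA box snoRNA was printed.

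**Figure D5:**
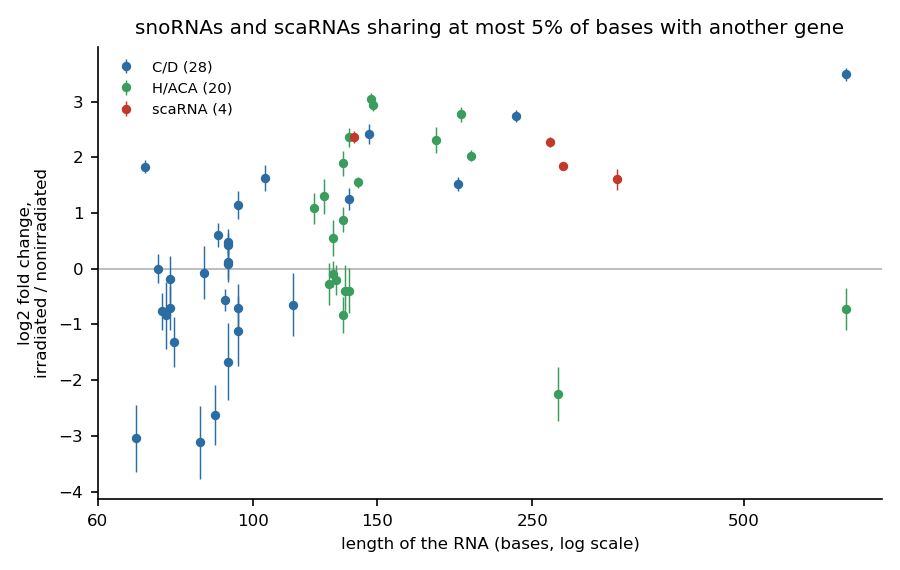
Log2 fold change against length (log axis) of snoRNAs and scaRNAs that share at most 5% of their bases with another gene, with standard errors, in blue C/D box, green H/ACA box and red scaRNAs. The 2 H/ACA snoRNAs with no irradiated count are not drawn. Among the 11 longer than 150 bases 9 were called higher, and those up to 120 bases had a median of −0.56.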

How the data were processed

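RNA of 3 irradiated and 3 nonirradiated HepG2 samples was depleted of ribosomal RNA and sequenced. The labels and the study's methods name different TruSeq kits, so whether libraries kept strand is not settled. The authors mapped reads to hg38 with TopHat2 2.1.1 and deposited raw counts per gene, made per the file headers with featureCounts 1.5.3 on GENCODE 28 exons. A read was counted for every gene it overlapped, and no option for strand or multiple mapping was given, so overlapping, antisense and multicopy genes are uncertain.

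Genes with a mean of at least 0.5 CPM in nonirradiated samples were compared between the groups by the quasi-likelihood test of edgeR 4.0.16 (R 4.3.3) using TMM factors and no covariate. P-values were adjusted after Benjamini and Hochberg over all 20117 genes, and called at 0.05. Normalized CPM are counts scaled by the library total times its TMM factor. Classes came from GENCODE 44, exon lengths and shared bases from the files, and sequences from the hg38 genome. In each list the member with the most reads in nonirradiated samples and the called, nonoverlapping members with the highest and lowest change could be named. Small RNAs could all be named, as could hepatocyte markers. So could the 10 called, nonoverlapping protein-coding genes with the largest rises and falls at a 6-sample mean of at least 10 CPM. Genes outside this are said to be chosen after their values were seen, or are markers or serve as the contrast to a named member. A few genes that the rule names are not reported here. The members and lists were chosen with earlier results of these data known.

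Each result was recomputed with DESeq2 1.42.0 as the test, its size factors, library sizes alone, other filters, a replicate block and without each sample. Genomic span and medians with uncounted genes at their floor were added after seeing the data. The fits were tested on simulated data. Python 3.11.15, numpy 2.4.6, scipy 1.17.1, pandas 2.3.3 and matplotlib 3.10.9 served the rest.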

Additional observations from a re-analysis of the deposited data

Results flagged for a closer look

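One signal lay outside the genes tested. RPL13AP3, a processed pseudogene of the ribosomal protein RPL13A, was below the filter without irradiation (7, 20 and 26 counts) but reached 57, 56 and 59 counts, a mean of 1.24 CPM, in the irradiated samples. It is one of 83 genes that were under 0.5 CPM without irradiation and at or above it with irradiation. Reads of such a copy are hard to separate from those of its parent gene.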

How the results depend on the processing

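The counts of called genes kept within 1.5 times under DESeq2's test (7156 higher, 8499 lower), its size factors (7274 and 8634) and the filter over all samples (7230 and 7394). Leaving out each sample gave 7098 to 7849 higher and 7609 to 8789 lower. With library sizes alone 1734 were higher and 15830 lower, 298 and 12273 of them by 2-fold. The 2-fold lower count was 2997 with at least 10 counts in every sample and 8503 with no filter, which test fewer (16337) and more (37174) genes. Without the 10 genes with the most counts, the difference in share, in percentage points, was 0 for mitochondrial rRNA, −4.935 for protein-coding, −0.00264 for miscellaneous RNA, −0.004325 for snRNA, 2.26 for ribozymes and 0.3748 for lncRNA; those genes include the rRNAs, 7SL and 7SK.

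Under library sizes alone these log2 changes turned negative: ALB −0.32, TF −0.01, FGB −0.21, AFP −0.61, HNF4A −1.24, C3 −0.74, RPL7L1 −1.14, ATP5F1A −0.11, MT-TR −1.12, HSP90AB1 −0.63, DDB1 −1.15, SRSF7 −0.57, NONO −0.87, SCARNA2 −0.16, LYZ −0.92, PDGFRB −1.0 and MT-ND4 −0.36. With at least 10 counts in every sample HNF4A was −0.21, RPL7L1 −0.11, MT-TR −0.09 and DDB1 −0.12. HNF4A was −0.02 with the filter over all samples, −0.005 with DESeq2's test or size factors and −0.01 without nonirradiated replicate 1, where CCN2 was 0.15. Leaving out each sample in turn gave HNF4A values of −0.01 to 0.07. Apart from the scaling itself, the cause was not tested.

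A fit with a replicate block called 7574 genes higher and 8157 lower. Deviations of samples with the same number correlated at 0.0364, 0.0262 and −0.0105, so the numbers did not pair the samples. Depth limits genes near 0.5 CPM, where a few counts decide.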
